A study of Mus musculus with 6 samples.

Results

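The fatty acid binding proteins described here are 8 genes for small soluble carriers of lipid: Fabp1, Fabp2, Fabp3, Fabp4, Fabp5 and Fabp7, together with Dbi and Scp2. They were taken as listed symbols from the combined table of 6 libraries, and all 8 were found among its 24534 gene features. Homozygous Atxn2 knockout mice were compared with wild-type mice, both of the C57BL/6 strain, in cerebellum, hippocampus and liver. There was 1 library per genotype and tissue, and each was a pool of 3 animals, aged 6 months by the sample labels, while the extraction protocol gives ages in weeks that do not match. No other allele or treatment is given in the labels. Massive analysis of cDNA ends (MACE) was used, which reads the 3' ends of polyadenylated transcripts and counts a single tag per transcript, long or short.

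Fatty acid binding proteins hold a long-chain fatty acid or a related ligand in the core of a small beta barrel and carry it through the cytosol between membranes, oxidising organelles and nuclear receptors. Each is named after the tissue in which it was first studied: Fabp1 of liver, Fabp2 of intestine, Fabp3 of heart, Fabp4 of adipocytes, Fabp5 of epidermis and Fabp7 of brain. Dbi encodes the acyl-CoA-binding protein, also called diazepam binding inhibitor, which holds fatty acids once they have been activated to acyl-CoA. Scp2 encodes sterol carrier protein 2 and, from another start site, a longer peroxisomal thiolase that shortens branched chains. In liver, peroxisome proliferator-activated receptors (PPARs) are fatty acid sensors that control many genes of lipid handling, and Fabp1 is a well-known target.

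The promoters of a liver member and of both members that were lower in liver than in brain are shown for reference beside the tissue values below. Each is the 250 bases before the transcript start in RefSeq (GRCm38.p6), on the plus strand. Fabp1 lies at chr6:71199629-71199878, Fabp3 at chr4:130308488-130308737 and Fabp7 at chr10:57784673-57784922. Capitals mark matches on either strand to AGGTCA (a nuclear receptor core motif, which reads TGACCT on the other strand), GTTAAT (a core of the hepatocyte nuclear factor 1 motif), TATAAA (the TATA box) and CCAAT (the CCAAT box, ATTGG on the other strand).
Fabp1: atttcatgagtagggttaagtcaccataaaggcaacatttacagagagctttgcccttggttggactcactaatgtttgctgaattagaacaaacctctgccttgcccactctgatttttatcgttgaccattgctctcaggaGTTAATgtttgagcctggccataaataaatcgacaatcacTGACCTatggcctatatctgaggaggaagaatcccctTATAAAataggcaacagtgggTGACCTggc
Fabp3: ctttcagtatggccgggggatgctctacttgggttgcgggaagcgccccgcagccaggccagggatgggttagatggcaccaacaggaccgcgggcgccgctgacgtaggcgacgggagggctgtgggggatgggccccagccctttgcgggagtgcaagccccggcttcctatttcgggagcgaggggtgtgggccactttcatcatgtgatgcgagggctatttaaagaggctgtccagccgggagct
Fabp7: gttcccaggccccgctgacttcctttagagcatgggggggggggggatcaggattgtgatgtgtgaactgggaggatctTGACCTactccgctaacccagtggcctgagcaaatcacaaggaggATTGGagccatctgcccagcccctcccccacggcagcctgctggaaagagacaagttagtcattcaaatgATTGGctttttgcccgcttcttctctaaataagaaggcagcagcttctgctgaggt
Fabp1 held 2 matches to AGGTCA, and single matches to GTTAAT and TATAAA. Fabp7 held 1 match to AGGTCA and 2 to CCAAT, and Fabp3 held none of the 4 motifs in this window. No capitals of different motifs overlapped. Of 32851 promoter windows of the same length, 14.0% held AGGTCA, 6.4% held GTTAAT, 12.4% held TATAAA and 33.8% held CCAAT. A promoter window was found for 6 of the 8 members.

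The libraries held between 1774523 (knockout liver) and 2727523 (wild-type liver) sense tags assigned to genes. Levels are given as CPM, sense tags per 1000000 after trimmed-mean (TMM) scaling. Because a transcript gives 1 tag, they can be set side by side between genes without a length correction. Atxn2 tags numbered 0 (knockout) against 167 (wild type) in cerebellum, 1 against 194 in hippocampus and 2 against 115 in liver. Xist, which is transcribed from the inactive X chromosome of females, was absent from the knockout libraries (0 tags each), while the wild-type pools gave 34 tags in cerebellum, 49 in hippocampus and 87 in liver. Y-linked Ddx3y was present in all 6 libraries, between 81 and 176 tags. The sex makeup of the pools therefore differed with genotype, and sex and genotype cannot be told apart in any comparison of knockout with wild type below. All 7 cerebellum markers were higher in cerebellum than in hippocampus, and 6 of 7 hippocampus markers were higher in hippocampus. Of all genes tested between these tissues, 13.3% were called higher in cerebellum and 15.5% lower. The extraction protocol names midbrain in place of hippocampus, but 6 markers of midbrain neurons summed to only 4.63 and 6.07 CPM in the libraries labelled hippocampus.

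Liver and brain carried different members of the family. In liver, Fabp1 made up 96.2% (knockout) and 96.3% (wild type) of the summed level of the 6 Fabp genes. In cerebellum, Fabp3 was the largest part, with 48.5% and 49.9%, followed by Fabp5 with 29.4% and 26.9%. In hippocampus that order was turned round, with Fabp5 at 46.7% and 44.1% and Fabp3 at 36.9% and 29.4%. Dbi was above every Fabp gene in all 4 brain libraries.

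**Figure D1:**
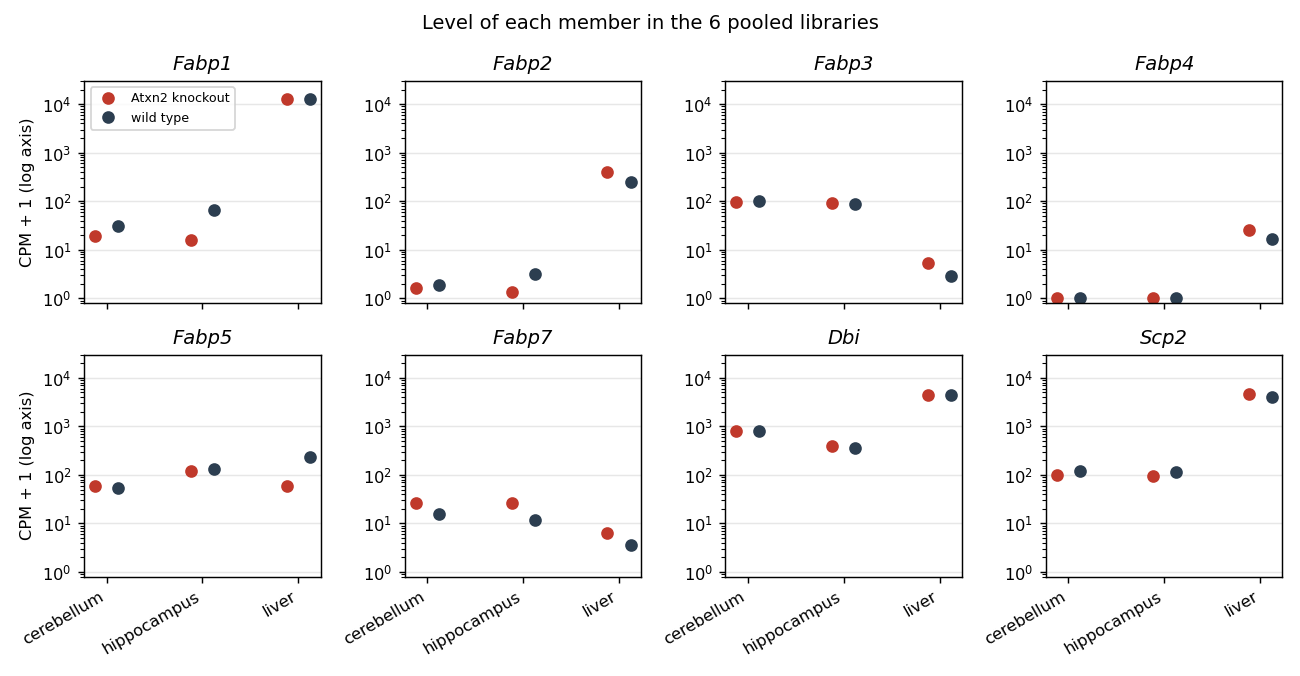
Level of each member in the 6 pooled libraries, as CPM + 1 on a log axis, with knockout in red and wild type in dark. Fabp1, Fabp2, Fabp4, Dbi and Scp2 sit higher in both liver libraries than in any brain library, Fabp3 and Fabp7 sit lower, and for Fabp5 the wild-type liver library lies above and the knockout liver library among the brain libraries.

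The liver members came first in level. In liver, Fabp1 stood at 12573 CPM (knockout) and 12865 CPM (wild type), ranking 12 and 10 among all features there. In cerebellum it was at 17.96 CPM (knockout) and 30.3 CPM (wild type), and in hippocampus at 14.9 CPM (knockout) and 65.7 CPM (wild type). The liver libraries lay far above all brain libraries, and the brain libraries differed from one another by genotype. For Scp2 the knockout and wild-type liver libraries held 4642 and 4080 CPM. Its brain levels were 98.8 and 118 CPM (cerebellum) and 95.6 and 112 CPM (hippocampus), with no overlap between liver and brain. Dbi was at 4393 and 4442 CPM in liver, 786 and 787 CPM in cerebellum, and 387 and 355 CPM in hippocampus. Its lowest library, wild-type hippocampus, still held more than any Fabp gene did in brain. Fabp2, the intestinal form, was at 398 and 246 CPM in liver and between 0.33 and 2.14 CPM in brain, where it rested on 1 to 6 tags per library. Fabp4, the adipocyte form, had 23 tags (24.9 CPM) in knockout and 24 tags (15.5 CPM) in wild-type liver and 0 tags in all 4 brain libraries. With each brain count of 0 set to a floor of 3 tags, its mean in liver was 18.8-fold above the highest brain floor. Its lower liver library was 14.5-fold above that floor. These folds depend on the floor and do not cover counting error.

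The brain members were fewer. In cerebellum, Fabp3 was at 96.6 CPM (knockout) and 98.9 CPM (wild type). It was at 92.6 and 87.2 CPM in hippocampus, against 4.33 and 1.94 CPM in liver, from 4 and 3 tags. Its 4 brain libraries were nearly level. Fabp7 was at 25.4 and 14.7 CPM in cerebellum, 25.8 and 10.7 CPM in hippocampus and 5.41 and 2.59 CPM in liver, from 5 and 4 tags. All brain libraries were above both liver libraries, and within each brain tissue the knockout was the higher. Fabp5 was at 58.5 and 53.4 CPM in cerebellum, 117 and 131 CPM in hippocampus, and 57.3 (knockout) and 230 CPM (wild type) in liver. The liver libraries lay on either side of the hippocampus libraries, which is not seen for any other member.

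In edgeR's quasi-likelihood fit over all 6 libraries, 6 of the 8 members were higher in liver than in the mean of both brain tissues and 2 were lower, where 36.3% and 34.7% of the 13124 genes tested were called higher and lower. The count filter of this contrast took tissue as the group. Fabp2 and Fabp4, with few or no tags in brain, passed it only through their liver libraries. Fabp3 and Fabp7, with at most 5 tags in a liver library, passed it only through their brain libraries. The calls of Fabp2 and Fabp4 as higher and of Fabp3 and Fabp7 as lower therefore add no support beyond the levels given above. Most genes were called in this contrast, so the sizes are given member by member. The log2 difference was 8.86 ± 0.40 (SE) for Fabp1 (Benjamini-Hochberg adjusted p from edgeR 2.5e-15), 8.30 ± 0.27 for Fabp2, 5.37 ± 0.25 for Scp2 and 3.03 ± 0.24 for Dbi. It was -5.01 ± 0.33 for Fabp3 and -2.25 ± 0.41 for Fabp7 (edgeR adjusted p = 3.9e-05). Fabp5 was called higher in liver at 0.72 ± 0.25 (edgeR adjusted p = 0.014), but the call did not hold. The difference was -0.51 without wild-type liver, 0.28 without wild-type cerebellum (edgeR adjusted p = 0.44) and 0.43 without wild-type hippocampus (edgeR adjusted p = 0.057). With library totals in place of TMM scaling it was -0.58, with TMM factors from all features 0.50 (edgeR adjusted p = 0.10), and DESeq2 gave 0.50 with an adjusted p of 0.39. DESeq2 did not call Fabp4 either (adjusted p = 0.066). The liver libraries had TMM factors of 0.521 and 0.567 against 1.29 to 1.41 in brain. With library totals every liver-brain difference was therefore smaller or more negative, at 7.53 for Fabp1, 6.99 for Fabp2, 4.05 for Scp2, 1.71 for Dbi, -6.30 for Fabp3 and -3.56 for Fabp7.

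Between the brain tissues, 1 member was called higher in cerebellum and 1 lower, where 13.3% and 15.5% of the genes tested were called in those directions. Dbi was higher in cerebellum by 1.09 ± 0.29 on the log2 scale (edgeR adjusted p = 0.0059), and both cerebellum libraries were above both hippocampus libraries. Fabp5 was lower in cerebellum, at -1.14 ± 0.28 on the same scale (edgeR adjusted p = 0.0029), again without overlap. These calls rest on 2 libraries per tissue, so the lack of overlap describes the levels and adds no support to the calls. Dbi was not called without knockout cerebellum, wild-type cerebellum or wild-type hippocampus, with adjusted p of 0.28, 0.29 and 0.073 in edgeR, and its difference kept between 0.99 and 1.14. Fabp5 was not called by DESeq2 (adjusted p = 0.20) or without wild-type cerebellum, where its difference fell to -0.63 (edgeR adjusted p = 0.34). Fabp3 (0.12), Fabp7 (0.16), Scp2 (0.06), Fabp1 (-0.59) and Fabp2 (-0.62) did not pass on this log2 scale, and Fabp4 had no tags to compare. With 1 library left out these values ranged from -1.32 to 0.49 for Fabp1, from -1.79 to 1.36 for Fabp2, from -0.03 to 0.45 for Fabp7, from -0.05 to 0.18 for Scp2 and from 0.04 to 0.23 for Fabp3. Fabp1, Fabp2 and Fabp7 changed sign without wild-type hippocampus, and Scp2 without wild-type cerebellum or knockout hippocampus. Fewer cells of a type and less RNA per cell cannot be told apart in any of these pools.

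The knockout was compared with wild type in all tissues together, with tissue as a block. In this fit p measures agreement between 3 tissues of the same pools, not the spread between animals. Of the 6 members tested, edgeR called 0 higher and 0 lower, where 0.00874% and 0.0874% of 11447 genes were called. At an unadjusted p under 0.05 there were 3 members and 558 genes, and DESeq2 called 2 genes, neither of them a member. Fabp7 had the smallest p, with a log2 difference of 1.01 ± 0.24 (edgeR adjusted p = 0.24) and knockout above wild type in 3 of 3 tissues. In liver Fabp7 rested on 5 tags against 4, too few to give a direction. Fabp1 stood at -0.90 ± 0.37 (edgeR adjusted p = 0.99) and Fabp5 at -0.56 ± 0.25 (edgeR adjusted p = 0.998). Fabp3, Dbi and Scp2 lay between -0.09 and 0.05. Fabp2 and Fabp4 were too low in brain to be tested. These counts of members depended on which libraries entered. Where a library of a tissue was left out, the tissue term took up the other library of that tissue. Both fits of each pair below therefore rest on the same remaining tissues and are not separate results. Fabp1 was called lower without knockout liver (-1.46) or wild-type liver (-1.46), with edgeR adjusted p of 2.8e-05 and 7.5e-06. Fabp5 was called lower without knockout hippocampus (-0.83) or wild-type hippocampus (-0.82), with edgeR adjusted p of 0.011 and 0.015. Fabp7 was called higher without either liver library, at 1.00 both times, with edgeR adjusted p of 0.0037 and 0.0036.

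Inside a single tissue, knockout and wild type have 1 library each and no test can be made. Each ratio is given with an exact conditional (Clopper-Pearson) 95% interval, which covers counting error only and not the spread between animals. A gene was counted by size when its log2 ratio was at least 1 in either direction, its mean level at least 10 CPM and its interval clear of 0. By this rule 0.129% of 8535 genes were higher and 0.316% lower in knockout cerebellum, 0.432% of 8558 higher and 1.04% lower in hippocampus, and 1.53% of 8248 higher and 3.39% lower in liver. Of the members, Fabp7 passed as higher and Fabp1 as lower in hippocampus, Fabp5 passed as lower in liver, and 0 passed in cerebellum. By the interval alone, at 10 CPM or more, 1 of 6 measured members was above 0 and 2 below in cerebellum (7.1% and 8.07% of all genes measured), 2 were above and 1 below in hippocampus (12.4% and 10.6%), and 2 were above and 1 below in liver (12.2% and 10.1%).

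**Figure D2:**
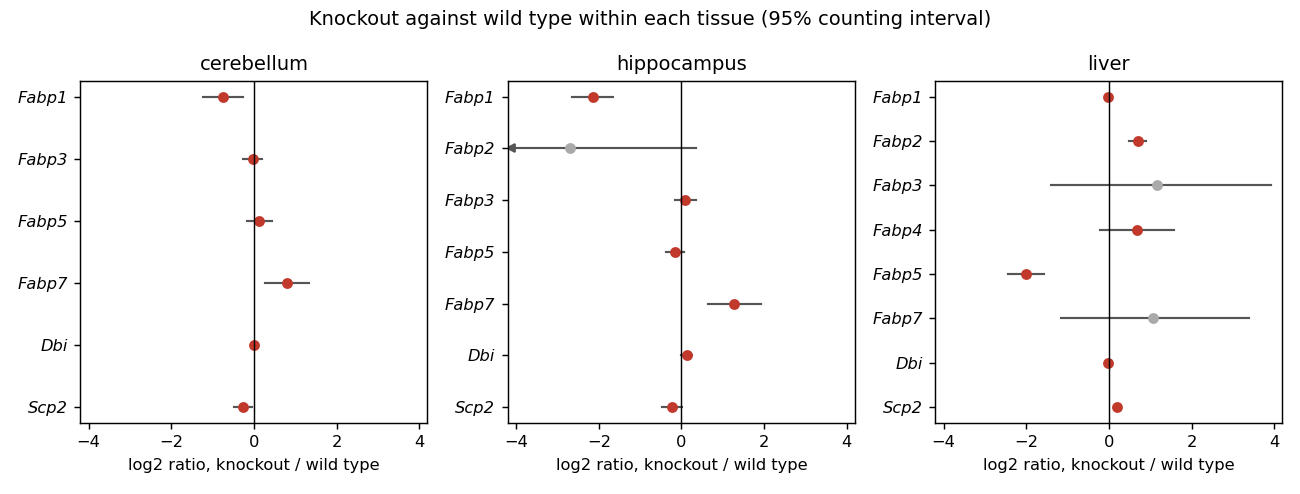
Log2 ratio of knockout to wild type for each member in each tissue, with 95% counting intervals; red points have a mean of at least 10 CPM, grey points less, and arrows mark intervals that run past the axis. Fabp7 lies above 0 in both brain tissues, Fabp1 lies below 0 in both brain tissues but close to 0 in liver, and Fabp5 is low in liver.

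Fabp7, the brain form, marks radial glia and astrocytes. Knockout cerebellum held 82 of its tags and wild-type cerebellum 49. Knockout hippocampus held 78 and wild-type hippocampus 30, so the knockout library was the higher in both tissues. The log2 ratio was 0.79 (0.26 to 1.33) in cerebellum and 1.27 (0.64 to 1.93) in hippocampus. In hippocampus 9 of 8558 genes at 10 CPM or more had a higher ratio, and in cerebellum 37 of 8535 had. An interval above 0 in both brain tissues was found for 2% of the 7737 genes measured in both. In liver Fabp7 rested on 5 and 4 tags, and its ratio of 1.06 had an interval from -1.15 to 3.40. The call across tissues depended on the liver libraries and on the filter. Without liver the difference was 1.00 (edgeR adjusted p = 0.014), and with no filter on low counts it was 1.01 (edgeR adjusted p = 0.012).

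Astrocyte and radial glial genes were set beside Fabp7, since they are expressed by the same cells. Of 10 measured astrocyte markers, 0 had an interval above 0 and 3 had one below in cerebellum, with a median log2 ratio of -0.07. In hippocampus 0 were above and 4 below, with a median of -0.22. The whole list of 11 summed to 4953 CPM (knockout) and 5265 CPM (wild type) in cerebellum, and to 3013 and 3335 CPM in hippocampus. The most abundant in cerebellum was the glycolytic enzyme gene Aldoc, at -0.01 (-0.06 to 0.03). In hippocampus it was the glutamate transporter gene Slc1a2, at -0.28 (-0.35 to -0.20). Of 6 measured radial glial and Bergmann glial markers, 1 was above and 3 below in cerebellum, and 0 were above or below in hippocampus, where their median was 0.05. Vim, an intermediate filament gene, was the one above 0 in cerebellum at 0.19 (0.0064 to 0.38). Medians over all genes measured were -0.01 in cerebellum and 0.01 in hippocampus. Of all genes measured, 7.1% had intervals above 0 and 8.07% below in cerebellum, and 12.4% and 10.6% in hippocampus. The part of sex in the Fabp7 ratios was not tested.

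**Figure D3:**
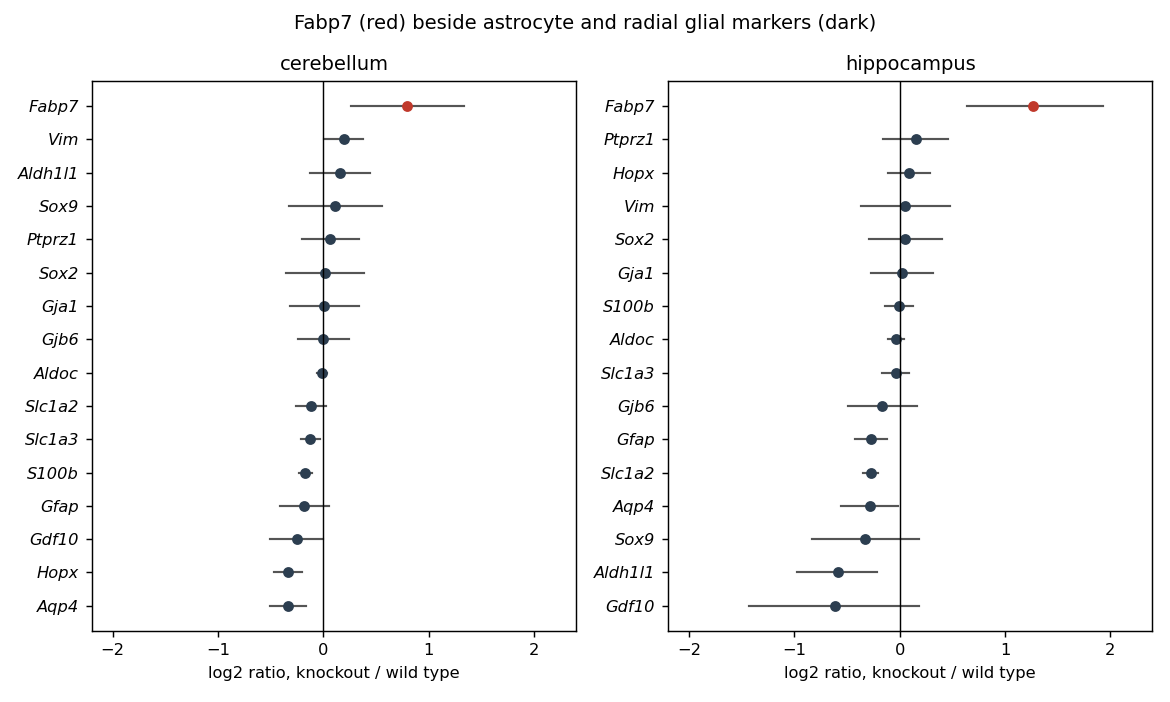
Log2 ratio of knockout to wild type with 95% counting intervals for Fabp7 (red) and for astrocyte and radial glial markers at 10 CPM or more (dark) in cerebellum and hippocampus. Fabp7, at 0.79 and 1.27, lies to the right of each marker drawn in both panels.

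Fabp1, the main lipid carrier of hepatocytes, was lower in both knockout brain libraries. Knockout cerebellum held 58 of its tags and wild-type cerebellum 101, a log2 ratio of -0.75 (-1.24 to -0.27). In hippocampus it had 45 and 184 tags, a ratio of -2.14 (-2.65 to -1.67), or 4.42-fold lower (3.17 to 6.26). There were 35 of 8558 genes in hippocampus with a lower ratio, and 2.09% of genes measured in both brain tissues had intervals below 0 in both. In liver, where the gene is abundant, the ratio was -0.03, with 11627 and 19899 tags. Its direction there depends on the scaling, being -0.16 with library totals and 0.07 with DESeq2's size factors, which move the median of all genes by -0.10 and 0.11.

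Other liver transcripts moved with Fabp1 in brain. Of the hepatocyte markers measured at 10 CPM or more, 8 of 9 had intervals below 0 in cerebellum, with a median log2 ratio of -1.16, and 11 of 11 did in hippocampus, with a median of -2.19. Over all genes measured, 8.07% had intervals below 0 in cerebellum and 10.6% in hippocampus. The whole list of 15 summed to 303 CPM (knockout) and 585 CPM (wild type) in cerebellum, and to 273 and 1427 CPM in hippocampus. Alb, the most abundant, had 458 and 2465 tags in knockout and wild-type hippocampus, a ratio of -2.54 (-2.69 to -2.39). As a percent of the liver level of the same genotype, Fabp1 stood in cerebellum at 0.143% (knockout) and 0.235% (wild type), and in hippocampus at 0.118% and 0.511%. The medians of the 15 hepatocyte markers were 0.106%, 0.312%, 0.107% and 0.616% in the same order. Fabp2 stood at 0.156%, 0.365%, 0.0831% and 0.870%, on 1 to 6 tags. The part of liver RNA in the brain levels of Fabp1 was not tested.

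**Figure D4:**
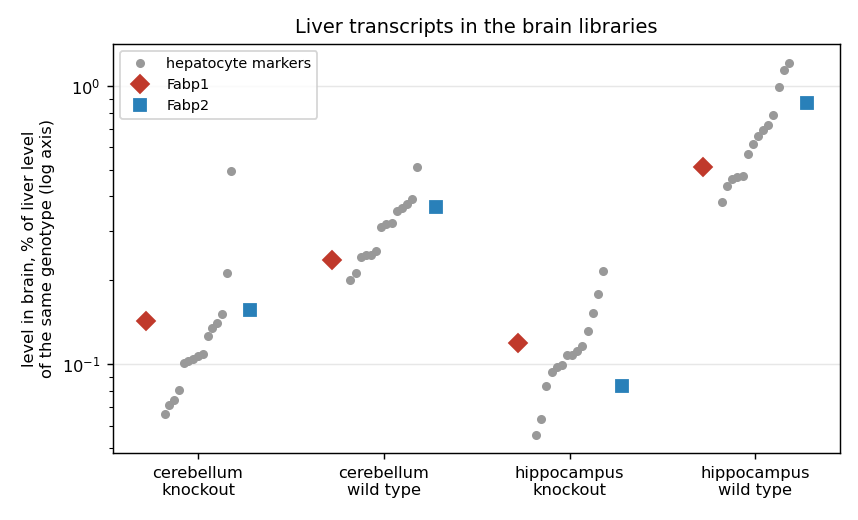
Level in each brain library as a percent of the level in liver of the same genotype, on a log axis, for Fabp1 (red), Fabp2 (blue) and 15 hepatocyte markers (grey); markers with no tags in a library are not drawn. Fabp1 lies within the spread of the hepatocyte markers in all 4 libraries, and both are highest in wild-type hippocampus.

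Fabp5, the epidermal form, had a ratio in liver farther from 0 than that of any other member. It had 53 tags in knockout and 355 in wild-type liver, a log2 ratio of -2.002 (-2.45 to -1.58), or 4.004-fold lower (2.99 to 5.45). A lower ratio was found for 41 of 8248 genes there. In brain the genotypes were close, at 0.13 (-0.17 to 0.44) in cerebellum and -0.16 (-0.37 to 0.06) in hippocampus. Most Fabp5 tags, 81.1%, came from a row shared with the predicted gene Gm3601, whose sequence the tags cannot separate. In liver that row held 45 and 283 tags, a ratio of -1.91, and the row of Fabp5 alone held 8 and 72 tags, a ratio of -2.43 (-3.69 to -1.37). Without hippocampus the difference across tissues was -0.84 (edgeR adjusted p = 0.015). That fit joins cerebellum and liver, whose ratios of 0.13 and -2.002 point in opposite directions. With 1 tissue left out the difference ranged from -0.99 to -0.03, with adjusted p up to 0.99 in edgeR.

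Genes of fatty acid oxidation that respond to PPARs were set beside Fabp5 in liver. Of 14 measured, 9 had intervals below 0 and 3 above, where 10.1% and 12.2% of all genes measured in liver had. The median log2 ratio was -0.47, against -0.02 over all genes measured. By size, 5 were lower and 0 higher, where 3.39% and 1.53% of all genes measured were. The acyl-CoA thioesterase genes Acot1 and Acot2 stood at -1.98 and -2.13, and the microsomal fatty acid hydroxylase genes Cyp4a10 and Cyp4a14 at -1.97 and -1.98. Ehhadh, the peroxisomal bifunctional enzyme, stood at -1.18. Vnn1 at 0.89 and the lipid droplet gene Plin2 at 0.32 had intervals above 0. Ppara, the main such receptor of liver, had 198 and 288 tags and a ratio of 0.20 (-0.07 to 0.47). Across tissues, 1 of 12 tested genes of this list passed as lower in edgeR, where 0.0874% of all genes tested did. It was Cyp4a10, at -1.98 ± 0.24 (edgeR adjusted p = 0.00044).

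The sex makeup and cell types of the liver pools have values of their own. Over all genes measured in liver, 12.2% had intervals above 0 and 10.1% below, and 1.53% were higher and 3.39% lower by size. All 8 measured transcripts of a list that is higher in female liver were lower in knockout liver by size, and the whole list of 10 summed to 54.1 CPM in knockout and 4347 CPM in wild type. Of 5 measured endothelial markers 0 had an interval clear of 0, and the whole list of 8 summed to 89.8 and 109 CPM. Of 6 measured macrophage markers 1 was below, and the 7 found summed to 883 and 930 CPM. All 6 measured erythroid genes had intervals above 0, 3 of them by size, and summed to 2803 and 1634 CPM. The part of sex and of these cells in the Fabp5 ratio was not tested.

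Fabp2 and Fabp4 had nearly all of their tags in liver. Fabp2 had 368 and 381 tags there, a log2 ratio of 0.69 (0.48 to 0.90), which is under the size rule. The interval lay above 0, as it did for 12.2% of the genes measured in liver. Among enterocyte markers Lct had 0 tags in both liver libraries, Vil1 had 0 and 1, and Sis and Alpi had no row. Anpep had 165 and 254 tags in liver, a ratio of 0.12 (-0.17 to 0.41). Apoa4, an apolipoprotein that liver also makes, had 498 and 561 tags and a ratio of 0.57 (0.39 to 0.75). Fabp4 had a ratio of 0.68 (-0.21 to 1.57), so no difference could be seen at this depth. Of the adipocyte markers, Lep and Ucp1 were at 0 in both liver libraries, Adipoq had 1 tag and 0, and Retn had 2 and 0. Cfd had 10 and 11 tags and Lipe had 25 and 34. The summed level of the list was 64.9 CPM in knockout and 31.0 CPM in wild type. Cidec, a lipid droplet protein gene, had 22 and 3 tags, a ratio of 3.62 (1.88 to 6.00).

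Dbi, Scp2 and Fabp3 had the smallest differences in the fit across tissues. In liver Fabp3 rested on 4 and 3 tags, with an interval from -1.41 to 3.93. Fabp3 had 312 and 330 tags in cerebellum and 280 and 244 in hippocampus, with ratios of -0.03 (-0.26 to 0.19) and 0.09 (-0.17 to 0.34). For Dbi, cerebellum held 2539 (knockout) and 2625 (wild type) tags, hippocampus 1169 and 993, and liver 4062 and 6871, with ratios of -0.00084, 0.12 and -0.02. Its intervals were the narrowest in brain, from -0.08 to 0.08 in cerebellum and from 0.00085 to 0.25 in hippocampus. Scp2 had 319 and 393 tags in cerebellum, a ratio of -0.25 (-0.47 to -0.04), and 289 and 314 in hippocampus, a ratio of -0.23 (-0.47 to 0.0041). In liver it had 4293 and 6311 tags, a ratio of 0.19 (0.13 to 0.24). The ratio stayed above 0 in liver with library totals (0.06) and with DESeq2's size factors (0.29). Dbi in liver changed sign between these scalings, at -0.14 and 0.09. The tags of Scp2 lie near the shared 3' end and cannot separate the carrier from the thiolase. Of these tags, 81.3% came from rows shared with the predicted gene Gm19491. In the row of Scp2 alone the ratio was -0.50 (-1.06 to 0.05) in cerebellum and 0.10 (-0.03 to 0.23) in liver. Both of these intervals spanned 0.

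Relatives of the members and genes that feed fatty acids to them were read as lists. None of 4 tested genes with an acyl-CoA-binding domain, 3 with a sterol carrier domain, 10 of fatty acid uptake and activation and 6 PPAR receptors and partners passed across tissues in edgeR, with medians of -0.04, -0.04, -0.14 and -0.04 on the log2 scale. At an unadjusted p under 0.05 there were also 0 of these. In liver, 4 of 9 measured uptake and activation genes had intervals above 0 and 2 below, where 12.2% and 10.1% of all genes measured had. Slc27a5, the bile acyl-CoA synthetase and most abundant of them, stood at 0.34 (0.26 to 0.43), and Acsl1, a long-chain acyl-CoA synthetase, at -0.47 (-0.60 to -0.34). Between tissues, 7 of 12 of these genes were higher in liver and 2 lower, where 36.3% and 34.7% of all genes tested were.

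The genes with the most similar profile over the 6 libraries were found by the Euclidean distance between centred log2(CPM + 1) values among 9383 genes. The libraries share tissues and pools, and nothing of shared function is read from a short distance. For Fabp1 they were Fetub (distance 0.20), Ahsg (0.20) and Mup2 (0.31), and for Fabp2 they were Fmo5 (0.26), Apoa4 (0.30) and Acsm1 (0.38). Fabp3 was nearest to Spock1 (0.16), Dbi to Gpld1 (0.20), Scp2 to Rdh9 (0.25) and Fabp4 to Tmem176b (0.21). Fabp5 and Fabp7 had no neighbour as close. Fabp5 was nearest to Acot2 (0.50), Magi3 (0.53) and Ccnd1 (0.56), and Fabp7 to Hip1 (0.66), Prpf40b (0.73) and Arl6 (0.76).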

How the data were processed

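The deposited values are whole-number counts of tags per RefSeq transcript row, sense and antisense, in a table of all 6 libraries. Per the submitters' processing notes CASAVA 1.8.2 and build mm9 were used, while the genomic rows of the deposited values name GRCm38, which does not match. No aligner is named in the sources used here. Sense counts were summed per gene, and a row shared with predicted genes only went to the named gene. Sense tags in genomic or mitochondrial rows (15.97 to 21.28%) and with no match (7.208 to 8.829%) were left out, and antisense tags (7.754 to 10.49%) were not used. Tests were made in edgeR 4.0.16 (R 4.3.3) by the quasi-likelihood method on all libraries, with tissue and genotype terms and Benjamini-Hochberg adjustment at 0.05, and DESeq2 1.42.0 was an alternative. TMM factors came from the genes kept by the count filter. This setting replaced factors from all features after the members' values had been seen, and both are reported. Scripts were tested on simulated data. Named genes are the members, Atxn2, from each list the gene with the highest level or past the size rule, and the 3 nearest profiles per member; other genes named were chosen after their values were seen, and some results are not reported here. The members and lists were chosen with earlier results of these data known.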

Additional observations from a re-analysis of the deposited data

Results flagged for a closer look

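Scp2 pointed in opposite directions in 2 tissues. Its log2 ratio of knockout to wild type, with its rows summed, was -0.25 in cerebellum and 0.19 in liver. Each of these counting intervals was clear of 0. In the row of Scp2 alone the ratios were -0.50 (-1.06 to 0.05) and 0.10 (-0.03 to 0.23), and both intervals spanned 0. In the larger row shared with Gm19491 they were -0.21 (-0.44 to 0.03) and 0.21 (0.14 to 0.27), clear of 0 in liver only. There is 1 library per genotype and tissue, so the difference was not tested.

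Antisense tags, which enter no comparison, exceeded the limit of 3 for 2 members. Fabp3 had 7 in wild-type cerebellum, 4 in knockout hippocampus and 4 in wild-type hippocampus, and 0 in knockout cerebellum. Scp2 had 19 in knockout liver and 35 in wild-type liver, beside 4293 and 6311 sense tags.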

How the results depend on the processing

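Between liver and brain the called value of Fabp5 changed sign, at -0.58 with library totals and -0.51 without wild-type liver, in a range up to 1.48 with 1 library left out. Values that were not called also changed sign. Between cerebellum and hippocampus, with 1 library left out, Fabp1 ranged from -1.32 to 0.49, Fabp2 from -1.79 to 1.36, Fabp7 from -0.033 to 0.45 and Scp2 from -0.054 to 0.18. For genotype across tissues Dbi stood at -0.011 with library totals and -0.0048 with no tissue block, from -0.018 to 0.059 with 1 library or 1 tissue left out, Fabp3 from -0.0075 to 0.16 with the same left out, and Scp2 at 0.17 with no tissue block. TMM factors from all features ended the liver-brain call of Fabp5 (0.50, edgeR adjusted p = 0.10) and moved the liver ratios of Dbi to -0.08, Fabp1 to -0.10 and Scp2 to 0.12, and ended no other call of a member. Between cerebellum and hippocampus DESeq2 called 0 members lower and 1908 genes against 3780. With 1 library left out, 0 to 1 members were called in each direction and 1792 to 4903 genes. Across tissues 11 genes were called for genotype, against 5 with DESeq2's size factors, 2 with DESeq2, 97 with no filter (1 member higher) and 0 with no tissue block. With 1 library left out the range was 11 to 162 genes, with 0 to 1 members higher and 0 to 1 lower, and with 1 tissue left out it was 20 to 107 genes, with 0 to 1 members in each direction. Fabp1 was called without liver (-1.47, edgeR adjusted p = 1.0e-05). By size in cerebellum, 38 genes passed, against 79 with library totals, 286 at a 1.5-fold limit (1 member higher and 1 lower), 261 at a mean of 1 CPM and 21 without liver-rich transcripts (at least 20 times above both brain tissues). In hippocampus 126 passed, against 653 at 1.5-fold, 493 at 1 CPM and 66 without liver-rich transcripts, which removes Fabp1 and leaves 0 members lower. In liver 406 passed, against 889 at 1.5-fold, with 1 member higher. The cause was not tested where the setting itself does not show it. Pools share only the replicate number 1, so genotype and tissue are the blocks. Leaving out the genotype term (no replicate block) gave 9299 genes against 9310 between liver and brain and 3620 against 3780 between cerebellum and hippocampus, with the same numbers of members called. Of 556 values of single members under other settings, 17 had another sign than the value reported. Counting error limits members under 10 CPM most.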
